A study of Mus musculus with 4 samples.

Results

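Long noncoding RNA (lncRNA) genes gave 4098 of the 87948 peaks of open chromatin in the hearts studied here, or 4.66%. A lncRNA gene-end peak was an autosomal peak within 1 kb of either end of a RefSeq lncRNA gene and more than 1 kb from every end of a protein-coding gene. The distance ran from the peak's nearer edge and was 0 where the peak covered the end. Carm1 mutant mice (2 libraries) were compared with wild-type mice (2 libraries), all as heart tissue at postnatal day 14. Carm1 is an arginine methyltransferase, and the series asks what it does in the maturation of the heart. The labels give neither the mutated allele, nor the sex or any pooling of the animals, and they do not say that the replicates of a genotype came from separate animals, so p-values here measure only the spread between these libraries. A commercial provider prepared the libraries.

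ATAC-seq uses a transposase that cuts DNA where nucleosomes leave it exposed, so the reads in a peak measure how open that stretch of chromatin is. A lncRNA is a transcript of a gene that codes for no known protein. Some lncRNAs act on neighbouring genes through their own transcription, some scaffold nuclear bodies or bind chromatin proteins, and others are mainly hosts from which microRNAs or small nucleolar RNAs are cut. In the heart the family includes Mhrt, transcribed from the opposite strand of the myosin heavy chain gene Myh7, and hosts of the muscle microRNAs. Many lncRNA promoters lack the dense CG dinucleotides (CpG) that mark most promoters of protein-coding genes, and their activity is often restricted to few tissues.

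The peaks belonged to 3113 lncRNA genes, of which 2338 had 1 such peak and 775 had 2 or more, at most 5. Peaks of a gene are not replicates of each other, and 140 peaks lay within 1 kb of more than 1 lncRNA gene, where they were counted under the nearest. Most carried names that say nothing of function: 3284 (80.1%) belonged to predicted genes named Gm or LOC with a number and 605 to RIKEN clones. A further 86 belonged to opposite-strand transcripts, 26 to host genes and 97 to lncRNAs with other names. Strand was known for the lncRNAs of 3129 peaks, of which 1900 lay at the 5′ end, 1056 at the 3′ end and 173 near both ends. Exons and UTRs were not placed. A total of 1521 peaks (37.1%) lay within the body of a protein-coding gene, where ATAC-seq, which has no strand, cannot tell the lncRNA's chromatin from that of the gene around it.

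The sequences that bear most on what follows are promoter windows of lncRNA genes, each 300 bases long, with 250 bases before the annotated start and 50 after it. They are RefSeq sequences of GRCm38.p6, the assembly of mm10, written 5′ to 3′ along the strand of the gene, and every CG dinucleotide is in capitals. The first 3 underlay peaks higher in the mutant, the next 2 peaks lower, and the last, picked for its many CpG, a strong uncalled peak. Their windows lie at chr9:92230112-92230411 (minus strand) for Gm31588, chr3:104360269-104360568 (minus) for Gm5546, chr17:73036841-73037140 (plus) for Gm30476, chr2:132698635-132698934 (minus) for Gm38455, chr10:95772883-95773182 (plus) for 4732465J04Rik and chr8:121950596-121950895 (minus) for Gm27011.
Gm31588: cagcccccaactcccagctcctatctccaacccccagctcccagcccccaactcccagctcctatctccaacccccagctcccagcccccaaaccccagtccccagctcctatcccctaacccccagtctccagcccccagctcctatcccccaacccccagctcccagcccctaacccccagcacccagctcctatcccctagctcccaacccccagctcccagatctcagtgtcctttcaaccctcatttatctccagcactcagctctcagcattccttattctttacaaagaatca
Gm5546: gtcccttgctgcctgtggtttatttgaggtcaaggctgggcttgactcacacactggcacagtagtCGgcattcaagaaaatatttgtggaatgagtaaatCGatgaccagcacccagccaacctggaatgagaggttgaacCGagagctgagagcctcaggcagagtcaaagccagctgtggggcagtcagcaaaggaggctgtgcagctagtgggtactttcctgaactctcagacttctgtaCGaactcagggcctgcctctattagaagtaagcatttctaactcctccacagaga
Gm30476: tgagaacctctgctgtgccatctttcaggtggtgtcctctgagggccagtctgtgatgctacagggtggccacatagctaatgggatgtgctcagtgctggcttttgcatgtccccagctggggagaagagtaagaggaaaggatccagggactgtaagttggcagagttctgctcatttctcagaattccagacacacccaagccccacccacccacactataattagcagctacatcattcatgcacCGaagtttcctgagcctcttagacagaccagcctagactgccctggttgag
Gm38455: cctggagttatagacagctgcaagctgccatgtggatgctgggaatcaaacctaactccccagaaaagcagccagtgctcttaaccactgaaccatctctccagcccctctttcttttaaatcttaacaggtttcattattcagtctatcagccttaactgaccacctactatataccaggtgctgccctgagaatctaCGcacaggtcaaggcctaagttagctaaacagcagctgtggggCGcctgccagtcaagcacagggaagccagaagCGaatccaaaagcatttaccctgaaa
4732465J04Rik: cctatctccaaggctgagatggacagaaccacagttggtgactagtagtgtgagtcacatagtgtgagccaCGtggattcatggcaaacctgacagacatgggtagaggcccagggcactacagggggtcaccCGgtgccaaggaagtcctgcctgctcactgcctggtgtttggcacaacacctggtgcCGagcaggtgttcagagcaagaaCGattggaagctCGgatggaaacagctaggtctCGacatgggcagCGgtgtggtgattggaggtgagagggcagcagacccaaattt
Gm27011: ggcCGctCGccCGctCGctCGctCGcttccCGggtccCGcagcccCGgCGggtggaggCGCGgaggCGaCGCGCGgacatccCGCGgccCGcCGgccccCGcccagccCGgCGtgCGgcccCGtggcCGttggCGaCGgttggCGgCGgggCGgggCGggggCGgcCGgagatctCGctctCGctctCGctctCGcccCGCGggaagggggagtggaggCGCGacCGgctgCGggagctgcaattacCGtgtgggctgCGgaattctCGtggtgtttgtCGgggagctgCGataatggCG
The windows of these 5 called peaks hold few CpG, with 0 in Gm31588, 4 in Gm5546, 1 in Gm30476, 3 in Gm38455 and 7 in 4732465J04Rik. The Gm27011 window holds 50, with a GC content of 77.3%. It was picked among the strongest peaks on CpG-rich windows, so its high CpG count follows from that choice. Peaks not called also lay on windows below the CpG-rich limit used later: the windows of Mir1a-1hg, Mir22hg, 2410080I02Rik and Kcnq1ot1, whose peaks there were not called, hold 15, 12, 11 and 9 CpG. The Gm31588 window is GC-rich as well, at 60.3%, but its cytosines lie in runs of near-repeats without any CG.

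The 4 libraries were alike in how much of their signal fell on lncRNA gene ends. Total counts in peaks were 16740589 and 15945420 in the mutant libraries and 17508230 and 19091969 in the wild-type libraries, and the gene-end peaks of lncRNAs took 4.99% and 4.97% of them in the mutant and 4.96% and 4.97% in the wild type. Counts were turned into CPM, counts scaled to a common library size after adjustment by the trimmed mean of M-values (TMM). Summed over the 4098 peaks, they came to 50790 and 49966 CPM in the mutant, against 49092 and 48939 CPM in the wild type. Both mutant sums lay above both wild-type sums, but 2 libraries against 2 cannot give an exact two-sided permutation p below 0.333. Median counts of these peaks were 106 and 107 in the mutant libraries and 111 and 124 in the wild-type libraries. All 4098 passed the filter on low counts, which removed 0 of the 87948 peaks of the table. At Carm1 itself the 6 peaks in or within 1 kb of the gene summed to 117 and 122 CPM in the mutant libraries and 114 and 114 CPM in the wild-type libraries, and 1 of the 6 was called, lower in the mutant. The labels do not say which part of the gene is altered, so these peaks do not check the genotype.

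Most lncRNA gene-end peaks were of modest level, and lncRNA ends without a peak are not part of these figures. Mean levels over the 4 libraries ran between 1.35 and 225 CPM, with a median of 6.50 CPM and quartiles at 3.60 and 14.5 CPM. These levels are not per length. The median width was 587 bp (164 to 7242 bp). The 15639 autosomal peaks at protein-coding gene ends had a median of 17.4 CPM and 1047 bp, and the 66875 autosomal peaks away from the ends of both kinds of gene had a median of 4.78 CPM and 476 bp. The 1499 peaks that covered a lncRNA end had a median of 10.6 CPM, against 5.22 CPM for the 2599 that lay beside one. At the edge of the definition, the 232 peaks in the last 100 bp inside the 1 kb limit had a median of 4.73 CPM, and the 217 peaks in the first 100 bp outside it had a median of 5.07 CPM.

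Of the 4098 lncRNA gene-end peaks, 121 (2.95%) were higher in the mutant, 87 (2.12%) were lower and 3890 (94.9%) did not pass the test. The test was edgeR's quasi-likelihood test fitted on all peaks, with a Benjamini-Hochberg adjusted p under 0.05 over all 87948. Over all peaks the same test called 3.05% higher and 2.45% lower, so the shares at lncRNA ends lay close to the background of the whole table. The median log2 fold change, mutant over wild type, was 0.03 at lncRNA gene ends and 0.00 over all peaks. In bulk tissue, fewer cells of a type and less open chromatin per cell cannot be told apart. Every called peak and every count that follows shares that limit.

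**Figure D1:**
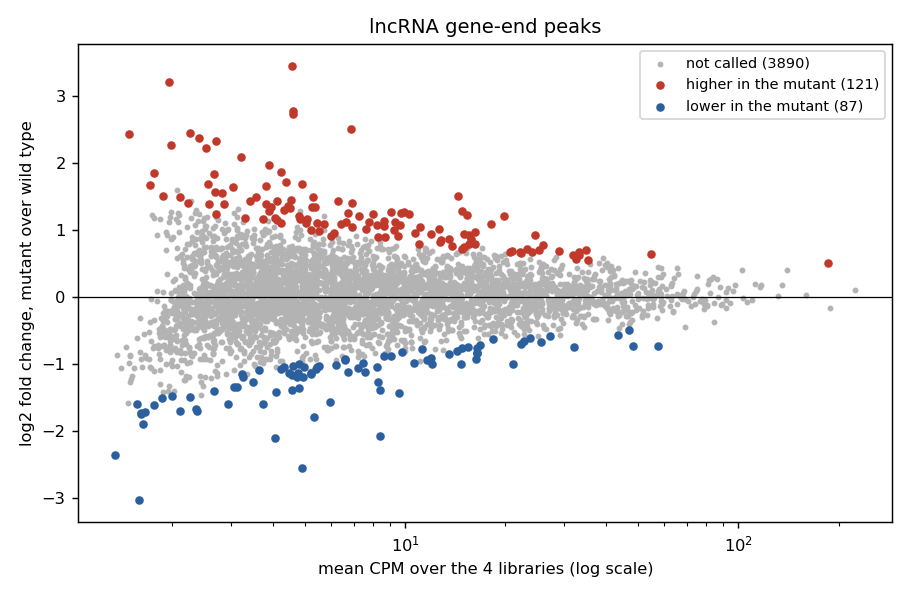
Log2 fold change (mutant over wild type, y axis) of each of the 4098 lncRNA gene-end peaks against its mean CPM over the 4 libraries (x axis, log scale), with the 121 higher peaks in red, the 87 lower peaks in blue and the rest in grey. Called peaks lie on both sides of 0, between log2 fold changes of -3.03 and 3.45, and the smallest called changes shrink as the level rises.

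The 121 higher peaks belonged to 117 lncRNA genes and the 87 lower peaks to 86. Among the higher peaks the median fold was 2.24, with log2 fold changes between 0.51 and 3.45. Among the lower peaks the median fold, wild type over mutant, was 2.11, with log2 fold changes between -0.49 and -3.03. Over all 4098 peaks, both mutant libraries lay above both wild-type libraries in 1133 (27.6%) and below them in 951 (23.2%), beside 25.8% and 25.7% of all peaks. Of all 4098 peaks, 3030 (73.9%) had a log2 fold change smaller than 0.5 in size. Standard errors (SE) were taken as the size of the log2 fold change divided by the square root of the test's F statistic. The median SE was 0.27, and it was 0.35 under 5 CPM and 0.16 at 20 CPM or more, so smaller changes could be called at stronger peaks.

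The number of calls depended on the library left out and on the tool. Without wild-type replicate 1 there were 52 higher and 30 lower peaks, and without wild-type replicate 2 there were 23 higher and 9 lower. Without mutant replicate 1 the counts were 213 higher and 109 lower, and without mutant replicate 2 they were 222 and 178. The share of all peaks called moved the same way, with 0.730% higher and 0.414% lower without wild-type replicate 2. DESeq2 called 74 peaks (1.81%) higher and 34 (0.83%) lower, beside 1.55% and 1.15% of all peaks. In all, 15 of the higher and 6 of the lower peaks were called whichever library was left out (12.4% and 6.90% of the calls), beside 318 higher and 187 lower of all peaks (11.9% and 8.67% of the calls).

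Shares of called peaks were close at both ends of the lncRNA genes. At the 5′ ends, 56 of 1900 peaks (2.95%) were higher and 36 (1.89%) were lower, and at the 3′ ends 31 of 1056 (2.94%) were higher and 24 (2.27%) were lower. Outside protein-coding gene bodies 75 of 2577 peaks (2.91%) were higher and 63 (2.44%) lower, and within them 46 of 1521 (3.02%) were higher and 24 (1.58%) lower. Peaks at protein-coding gene ends were called less often, with 259 of 15639 (1.66%) higher and 61 (0.390%) lower, whereas 2252 of 66875 (3.37%) peaks away from both were higher and 1976 (2.95%) lower. These shares describe the classes, and no difference between them was tested. Among the 307 lncRNA genes with a peak at each end, the log2 fold changes had the same sign at both ends in 181, and their Pearson r across genes was 0.28, a description over peaks of the same 4 libraries.

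**Figure D2:**
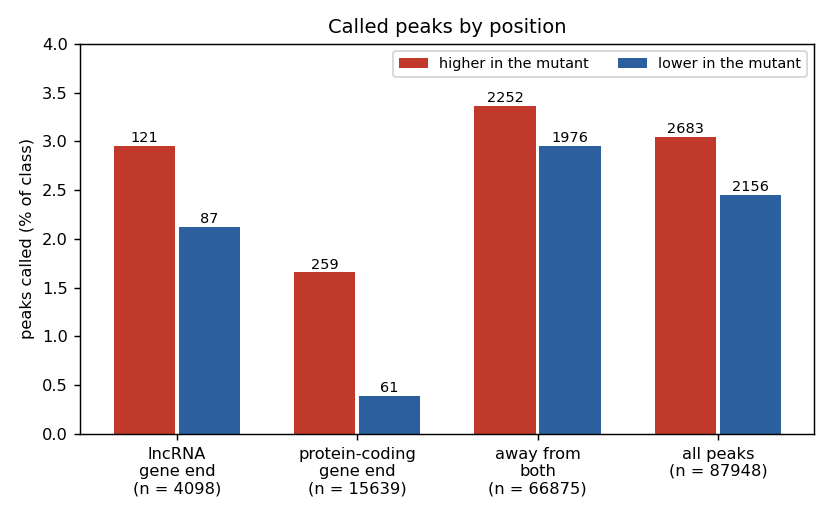
Share of peaks called higher (red) and lower (blue) in the mutant, in percent of each class (y axis from 0), for lncRNA gene ends, protein-coding gene ends, peaks away from both, and all peaks; the number over each bar is the count of called peaks. The lncRNA gene ends, with 2.95% higher and 2.12% lower, stand nearer to all peaks than to protein-coding gene ends.

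The 10 higher and 10 lower lncRNA genes described here were those with the smallest p among called peaks whose groups did not overlap. All 20 carry predicted-gene or clone names, and no function is given for them. The peak over the start of Gm31588 (chr9:92229849-92230238), between genes and 17313 bp from Plscr5, had 13.2 and 10.2 CPM in the mutant libraries, against 1.87 and 2.22 CPM in the wild-type libraries. Its log2 fold change was 2.51 ± 0.28 (SE) with an adjusted p of 0.000192. The peak beside Gm3521 (chr5:65858880-65859216) had 8.39 and 8.39 CPM in the mutant, against 1.30 and 0.258 CPM in the wild type. Its log2 fold change of 3.45 ± 0.43 (adjusted p = 0.00027) was the largest rise among the 4098 peaks, and it rests on 23 and 5 counts in the wild type. Without wild-type replicate 1 the log2 fold change of Gm3521 was 4.99, and without wild-type replicate 2 it was 2.69.

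Stronger peaks among the higher ones were open in both genotypes. At Gm5546 (chr3:104359933-104360824), the peak over the start had 19.4 and 23.1 CPM in the mutant, against 8.94 and 6.04 CPM in the wild type (log2 fold change 1.51 ± 0.22, adjusted p = 0.001005). At Gm15742 (chr16:30964453-30965640), within Xxylt1, a xylosyltransferase gene, there were 22.5 and 20.3 CPM in the mutant, against 9.34 and 9.08 CPM in the wild type (log2 fold change 1.21 ± 0.20, adjusted p = 0.00189). At Gm31889 (chr5:64877827-64878837), 44926 bp from the zinc-finger factor gene Klf3, there were 17.9 and 24.1 CPM in the mutant, against 8.77 and 8.57 CPM in the wild type. The wild-type pair was tight at Gm15742 and Gm31889. The peak near both ends of Gm30476 (chr17:73036642-73037603) had 26.6 and 22.4 CPM in the mutant, against 11.03 and 12.1 CPM in the wild type (log2 fold change 1.08 ± 0.19, adjusted p = 0.00318). A further 3 weaker peaks, of Gm39368, Gm39674 and the RIKEN clone 3110067G11Rik within Ak5, lay between 3.91 and 5.11 CPM in the mutant libraries, against 0.566 to 1.19 CPM in the wild-type libraries.

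Among the lower peaks, Gm40454 (chr7:118181133-118181562), within Smg1, the gene of a kinase of nonsense-mediated decay, had 2.74 and 3.72 CPM in the mutant, against 13.2 and 13.9 CPM in the wild type. Its log2 fold change was -2.07 ± 0.26 (adjusted p = 0.000272). The peak over the start of Gm38455 (chr2:132698331-132698793), within the DNA repair gene Shld1, had 5.72 and 4.61 CPM in the mutant, against 12.4 and 15.5 CPM in the wild type (log2 fold change -1.43 ± 0.24, adjusted p = 0.00256). The 3′ peak of Gm34640 had 4.32 and 4.99 CPM in the mutant, against 12.8 and 11.6 CPM in the wild type (log2 fold change -1.39). At the 3′ end of Gm39149 there were 2.62 and 2.15 CPM in the mutant, against 7.81 and 8.77 CPM in the wild type (log2 fold change -1.80), and beside Gm31563 there were 2.37 and 0.694 CPM in the mutant, against 6.22 and 7.02 CPM in the wild type (log2 fold change -2.10). The Gm31563 value leaned on the mutant libraries, with a log2 fold change of -3.24 when mutant replicate 1 was left out and -1.48 when mutant replicate 2 was.

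The strongest of the named lower peaks changed least in proportion. The peak over the start of 4732465J04Rik (chr10:95772853-95775326) had 41.7 and 44.7 CPM in the mutant, against 67.2 and 76.5 CPM in the wild type (log2 fold change -0.73 ± 0.14, adjusted p = 0.0052). Gm40929 (chr13:43191126-43192466), at its 3′ end, had 36.01 and 36.7 CPM in the mutant, against 54.2 and 66.6 CPM in the wild type (log2 fold change -0.73 ± 0.15, adjusted p = 0.00744). Gm34726 had 1.46 and 1.39 CPM in the mutant, against 4.13 and 12.6 CPM in the wild type, so its log2 fold change of -2.56 leaned on wild-type replicate 2 and was -1.53 without it. Gm34240 had 2.92 and 3.09 CPM in the mutant, against 7.47 and 10.4 CPM in the wild type, and Gm40630 had 2.01 and 1.70 CPM in the mutant, against 5.66 and 5.63 CPM in the wild type. Without wild-type replicate 2, 6 of the 20 calls were lost: the adjusted p was 0.0506 at Gm36165, 0.0519 at Gm40630, 0.0711 at Gm34240, 0.101 at Gm34726, 0.141 at 4732465J04Rik and 0.215 at Gm40929. Apart from Gm34726, their log2 fold changes without it were 1.01 at Gm36165, -1.60 at Gm40630, -1.31 at Gm34240, -0.63 at 4732465J04Rik and -0.57 at Gm40929. The other 14 were called whichever library was left out.

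**Figure D3:**
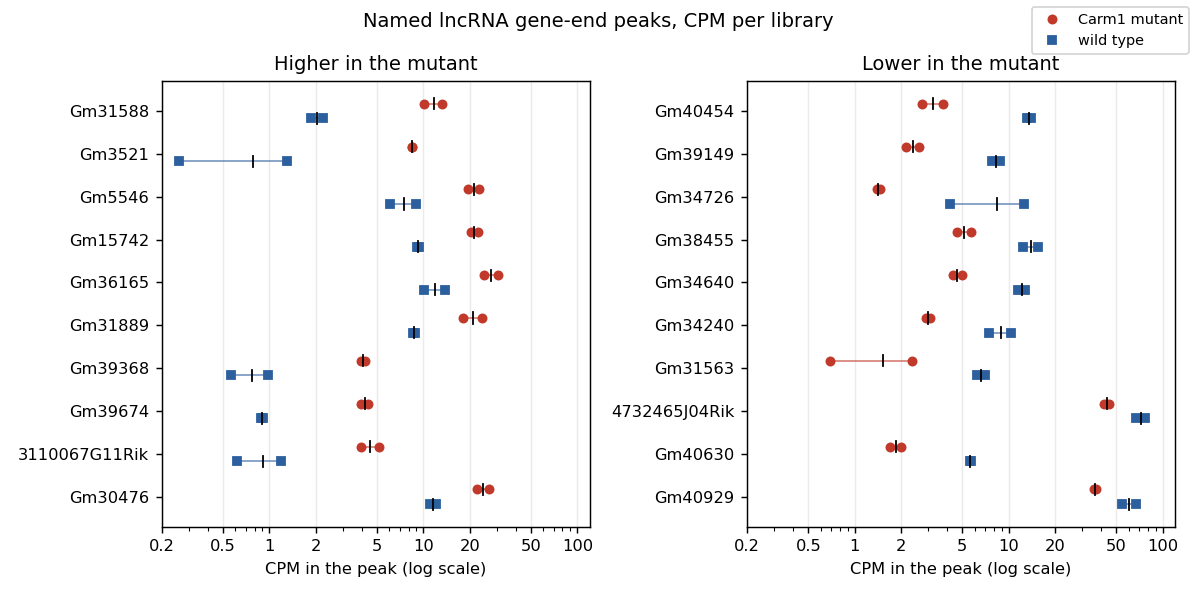
CPM per library (x axis, log scale) at the 10 named higher peaks (left) and the 10 named lower peaks (right), with mutant libraries as red circles, wild-type libraries as blue squares and the mean of each pair as a tick. The 20 were chosen with pairs that do not overlap, and the widest wild-type pairs are those of Gm3521 (1.30 and 0.258 CPM) and Gm34726 (4.13 and 12.6 CPM).

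The 5 strongest lncRNA gene-end peaks were all broad, between 3664 and 7242 bp. The peak over the start of Mir22hg, the host gene of a microRNA abundant in heart muscle, was 4736 bp wide, with 218 and 247 CPM in the mutant and 208 and 226 CPM in the wild type (log2 fold change 0.10 ± 0.11, adjusted p = 0.662). The peak of Gm31251, 7346 bp from Myh7, had 175 and 148 CPM in the mutant and 164 and 151 CPM in the wild type (log2 fold change 0.03, adjusted p = 0.91). The peak of 2410080I02Rik, 3478 bp from Klf9, a gene induced by thyroid and glucocorticoid hormone, had 186 and 172 CPM in the mutant and 200 and 199 CPM in the wild type (log2 fold change -0.16, adjusted p = 0.445). The first 2 overlapped between genotypes, and at the third both mutant libraries lay below both wild-type libraries without passing the test.

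The remaining 2 of the 5 strongest peaks both belonged to Mir1a-1hg, a host gene of the muscle microRNAs miR-1 and miR-133. At its 3′ end (chr2:180397554-180401218) there were 249 and 188 CPM in the mutant, against 168 and 140 CPM in the wild type, and the log2 fold change was 0.51 ± 0.13 with an adjusted p of 0.0327. Mutant replicate 2 lay only somewhat above wild-type replicate 1, and the call was lost when wild-type replicate 1 (adjusted p = 0.0634), its fellow replicate 2 (0.377) or mutant replicate 1 (0.108) was left out, and with DESeq2 (0.0699). Over the start (chr2:180384524-180391766), in the widest of all lncRNA gene-end peaks at 7242 bp, there were 159.1 and 158.3 CPM in the mutant, against 122.6 and 118.3 CPM in the wild type. There the pairs were tight and apart, the log2 fold change was 0.40 ± 0.12, and the adjusted p of 0.0503 missed the threshold. The start peak passed with limma voom (adjusted p = 0.0260) but not with DESeq2 (0.0787). When single libraries were left out, its log2 fold change ran from 0.38 (wild-type replicate 2 left out) to 0.43 (wild-type replicate 1 left out). The other 2 peaks of Mir1a-1hg had log2 fold changes of 0.36 and 0.33 with adjusted p of 0.279 and 0.574. All 4 peaks of the gene thus leaned the same way and 1 was called.

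In 6 lncRNA genes there were 2 or more called peaks. At Atcayos, the transcript opposite to Atcay, both 3′ peaks were higher, with 12.3 and 10.3 CPM in the mutant against 5.83 and 6.35 CPM in the wild type at the first (log2 fold change 0.89) and 8.15 and 7.26 CPM in the mutant against 2.83 and 3.25 CPM in the wild type at the second (log2 fold change 1.34). At Gm51811, within the transcription factor gene Nfic, the 5′ peak had 28.8 and 30.4 CPM in the mutant, against 20.1 and 17.1 CPM in the wild type, and the 3′ peak had 42.0 and 40.1 CPM in the mutant, against 28.7 and 22.7 CPM in the wild type. Both were higher, with log2 fold changes of 0.67 and 0.68. Gm5546 had a second higher peak beside its start, with a log2 fold change of 2.42 on 50 and 31 counts in the mutant and 11 and 6 in the wild type.

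At the other 3 genes the peaks did not all move one way, or were weak. At Gm32934, 2 peaks at the 3′ end were higher, with log2 fold changes of 1.10 and 1.20, while the far stronger 5′ peak had 101 and 87.0 CPM in the mutant and 88.9 and 90.6 CPM in the wild type (log2 fold change 0.07). At Gm46914, within the flippase gene Atp8a1, a 3′ peak was higher (13.4 and 7.07 CPM in the mutant, 5.21 and 4.90 CPM in the wild type, log2 fold change 1.02). The next peak at the same end was lower, with 12.8 and 11.6 CPM in the mutant, against 20.6 and 20.7 CPM in the wild type (log2 fold change -0.76). Both peaks of Gm52776, within Limch1, were lower, with log2 fold changes of -1.20 and -1.71, and no library exceeded 4.87 CPM there. At the second the log2 fold change became -2.98 when mutant replicate 1 was left out and -1.06 when mutant replicate 2 was. Of the 12 called peaks of these 6 genes, the Gm5546 peak over the start was called whichever library was left out. Without wild-type replicate 1, 8 of the 12 were lost (adjusted p of 0.0700 to 0.220), and without wild-type replicate 2, 10 were lost (0.0730 to 0.341). Without mutant replicate 1, 3 were lost (0.0894 to 0.404), and without mutant replicate 2, 3 were lost (0.125 to 0.170).

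Some called peaks lay within 500 kb of another called in the same direction, and the loci named here were chosen after their values were seen. Each interval given runs from the first to the last of its called lncRNA peaks, so its share of called peaks is raised by that choice. Over all peaks, 3.05% were higher and 2.45% lower, and the difference from these shares was not tested. Around Gata4, a core cardiac transcription factor gene, an interval of 317 kb on chromosome 14 (chr14:63054573-63371092) held 6 lncRNA gene-end peaks, 3 of them higher, and 7 higher and 0 lower peaks among its 62 peaks of any kind. At the start of 2700070H01Rik there were 17.2 and 22.1 CPM in the mutant, against 11.5 and 11.2 CPM in the wild type (log2 fold change 0.79), and beside Gm36165 there were 30.6 and 24.7 CPM in the mutant, against 13.8 and 10.1 CPM in the wild type (log2 fold change 1.21). Beside Gm46458, 1745 bp from Blk, the peak had 70.1 and 63.0 CPM in the mutant, against 44.4 and 40.8 CPM in the wild type (log2 fold change 0.64). On chromosome 8, an interval of 556 kb around the collagen genes Col4a1 and Col4a2 held 12 lncRNA gene-end peaks, 3 of them higher, at Gm32594, Gm15418 and E230013L22Rik within Rab20, with log2 fold changes of 1.44, 1.38 and 0.62. Of the 138 peaks of any kind in that interval, 12 were higher and 2 were lower.

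Runs of lower peaks were found as well, and the interval given here was also bounded by its called peaks. On chromosome 5 (chr5:118950469-119194189), 3 of the 4 lncRNA gene-end peaks were lower, at 4930413E15Rik (10.4 and 15.1 CPM in the mutant, 20.7 and 21.1 CPM in the wild type), Gm30895 (0.730 and 1.64 CPM in the mutant, 3.90 and 2.79 CPM in the wild type) and Gm7538 (4.56 and 4.54 CPM in the mutant, 8.83 and 8.41 CPM in the wild type). The nearest protein-coding gene was Med13l, a subunit gene of the Mediator kinase module, 185031 bp or more away. Near Actc1, the cardiac actin gene, the start of C130080G10Rik lay 1134 bp from the gene and had 33.8 and 36.2 CPM in the mutant, against 55.2 and 48.5 CPM in the wild type (log2 fold change -0.57 ± 0.15, adjusted p = 0.0282). D830005E20Rik, within the triadin gene Trdn of the calcium release unit, was higher, with 22.3 and 18.9 CPM in the mutant, against 12.8 and 11.1 CPM in the wild type (log2 fold change 0.79). At Hnf4aos the log2 fold change of 3.21 leaned on a single library, with 1.03 and 6.06 CPM in the mutant, against 0.283 and 0.464 CPM in the wild type. Leaving out mutant replicate 1 gave 3.98 there and leaving out mutant replicate 2 gave 1.44. The log2 fold change of Gm30895 was -1.49 with all libraries, -1.02 without mutant replicate 1 and -2.18 without mutant replicate 2. None of the 12 peaks named for their loci was called whichever library was left out. Without wild-type replicate 1, 10 were lost (adjusted p of 0.0804 to 0.313), and without wild-type replicate 2, 10 were lost (0.0506 to 0.258). Without mutant replicate 1, the 3 peaks on chromosome 5 were lost (0.0521 to 0.167), and without mutant replicate 2, Hnf4aos, Gm32594, 2700070H01Rik and Gm15418 were lost (0.0812 to 0.235).

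Where a protein-coding gene lay within 50 kb, its own gene-end peaks were looked up. The nearest genes of the higher lncRNA peaks numbered 82, of which 66 had a gene-end peak and 6 of those (9.09%) had a higher one. The nearest genes of the lower lncRNA peaks numbered 42, of which 33 had a gene-end peak and 3 of those (9.09%) had a lower one. The nearest genes of the lncRNA peaks not called numbered 1883, of which 1453 had a gene-end peak. Of those, 42 (2.89%) had a higher one and 5 (0.344%) a lower one. Over all 11760 protein-coding genes with a gene-end peak, 246 (2.09%) had a higher one and 57 (0.485%) a lower one. The counts of 6 and 3 are small, neighbouring peaks come from the same libraries, and the differences between these shares were not tested.

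The lncRNAs with known roles were taken from 3 lists of names: cardiac and mesodermal lncRNAs, hosts of small RNAs, and imprinted lncRNAs. Joined, they hold 73 names, of which 37 had 58 gene-end peaks here. Mir1a-1hg is not on these lists, and its higher 3′ peak was the 1 called among the 26 peaks of host-named genes. In edgeR's test 0 of the 58 passed, and 0 with DESeq2 or limma voom, while 10 were higher and 1 was lower at an unadjusted p under 0.05. Over all peaks 3.05% were called higher and 2.45% lower, and 11.4% were higher and 10.4% lower at an unadjusted p under 0.05, so a count of 0 among 58 says little about the lists. The median log2 fold change was 0.15 over the 58 peaks and 0.00 over all peaks, and 41 of the 58 were above 0. Of the 36 names without a member, 12 had no lncRNA entry in the gene table, 16 had no peak within 1 kb and 8, Gas5, Tug1 and Fendrr among them, had gene-end peaks that all lay too near a protein-coding gene.

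The cardiac and mesodermal list gave 33 peaks of 16 lncRNAs, with a median log2 fold change of 0.14 (-1.03 to 0.73). Of the 33, 0 passed, and 5 were higher and 1 was lower at an unadjusted p under 0.05 in edgeR's test. The values given next are those of the strongest peak of each lncRNA, and the peak at -1.03 is not among them. Mhrt had 15.6 and 12.9 CPM in the mutant, against 10.2 and 6.97 CPM in the wild type, at a 3′ peak. That peak also lies within Myh7 and within 1 kb of an end of Gm31251. The pairs did not overlap, and the log2 fold change of 0.73 ± 0.23 had an adjusted p of 0.0693. Malat1, an abundant nuclear RNA, had 107 and 126 CPM in the mutant, against 95.7 and 81.3 CPM in the wild type (log2 fold change 0.40 ± 0.13, adjusted p = 0.084). Neat1, the scaffold of paraspeckles, leaned the other way, with 26.6 and 23.7 CPM in the mutant and 29.9 and 31.7 CPM in the wild type (log2 fold change -0.29, adjusted p = 0.301). Carmn, the host of smooth muscle microRNAs, had 48.2 and 52.9 CPM in the mutant and 43.2 and 42.3 CPM in the wild type (log2 fold change 0.24), and Bvht, described in cardiac commitment of mouse cells, had 43.1 and 45.6 CPM in the mutant and 35.1 and 41.6 CPM in the wild type (log2 fold change 0.21).

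Others on that list overlapped between the genotypes. Chaserr, at a 3′ peak within Chd2, had 107 and 97.0 CPM in the mutant and 101 and 107 CPM in the wild type. Its log2 fold change was -0.02 ± 0.12. Oip5os1 had 54.2 and 53.0 CPM in the mutant and 53.4 and 54.1 CPM in the wild type, a log2 fold change of 0.00 ± 0.14. The 3′ peak of Hand2os1, upstream of the cardiac transcription factor gene Hand2, had 6.51 and 5.81 CPM in the mutant and 6.05 and 7.12 CPM in the wild type. Its log2 fold change was -0.10 ± 0.26, at a lower level and with a larger SE.

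Hosts of small RNAs gave 24 peaks of 20 lncRNAs, with a median log2 fold change of 0.16, and 19 of the 24 were above 0. Snhg18 came closest to the threshold, with 7.48 and 8.83 CPM in the mutant, against 4.13 and 4.75 CPM in the wild type (log2 fold change 0.88 ± 0.26, adjusted p = 0.0545). That peak lay 857 bp from the 5′ end of Snhg18 and 1008 bp from an end of the protein-coding gene Sema5a. Snhg7 had 50.2 and 49.7 CPM in the mutant, against 36.4 and 37.8 CPM in the wild type (log2 fold change 0.43 ± 0.14, adjusted p = 0.0811). Snhg8, the strongest of the Snhg genes here, had 88.7 and 84.3 CPM in the mutant, against 70.0 and 80.9 CPM in the wild type (log2 fold change 0.20, adjusted p = 0.406). Snhg9 and Dancr overlapped between the genotypes, with log2 fold changes of 0.01 and -0.06. In this list 0 peaks passed, and 5 were higher and 0 lower at an unadjusted p under 0.05.

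Imprinted lncRNAs, expressed from the allele of a single parent, gave 5 peaks of 4 genes, of which 0 passed and 0 had an unadjusted p under 0.05. Airn, which silences its neighbour Igf2r on the paternal allele, had 50.4 and 41.0 CPM in the mutant, against 39.6 and 34.9 CPM in the wild type (log2 fold change 0.30 ± 0.15, adjusted p = 0.267). Kcnq1ot1 had 23.8 and 29.2 CPM in the mutant and 24.8 and 22.5 CPM in the wild type (log2 fold change 0.16), and Peg13 had 41.1 and 38.0 CPM in the mutant and 37.7 and 37.7 CPM in the wild type (log2 fold change 0.07). Counts per peak do not separate the alleles.

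Markers of cell types were read from their own gene-end peaks. The gene-end peaks of the 10 cardiomyocyte markers summed to 1364 and 1199 CPM in the mutant, against 1151 and 1049 CPM in the wild type, and their median log2 fold change over 22 peaks was 0.24. Endothelial markers (9 of 10 with a gene-end peak) summed to 277 and 271 CPM in the mutant and 367 and 259 CPM in the wild type, with a median log2 fold change of -0.27 and 1 of 13 peaks lower. Fibroblast markers (9 of 9) summed to 96.0 and 117 CPM in the mutant and 95.1 and 106 CPM in the wild type. Pericyte and smooth muscle markers (7 of 8) summed to 128 and 124 CPM in the mutant, against 111 and 107 CPM in the wild type. Schwann and neuronal markers (3 of 6) summed to 67.6 and 55.6 CPM in the mutant, against 50.7 and 38.9 CPM in the wild type, with a median log2 fold change of 0.75 and 1 of 4 peaks higher. Erythroid markers (2 of 5) summed to 22.1 and 21.5 CPM in the mutant, against 18.95 and 15.5 CPM in the wild type, with a median of 0.18. None of the peaks of these lists was at 0 in a library, while none of the 8 leukocyte markers had a gene-end peak. The part of the mix of cells in the lncRNA results was not tested.

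**Figure D4:**
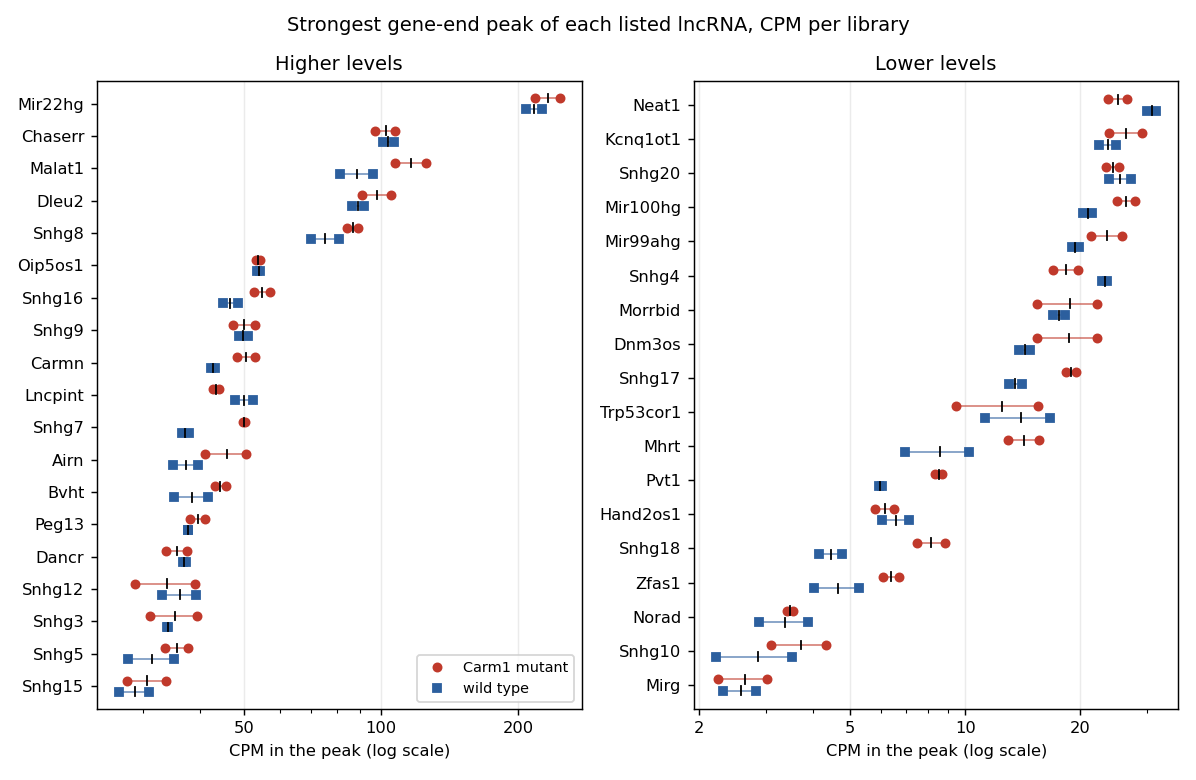
CPM per library (x axis, log scale) at the strongest gene-end peak of each of the 37 listed lncRNAs, ordered by level, with mutant libraries as red circles, wild-type libraries as blue squares and the mean of each pair as a tick. The mutant pairs of Malat1, Snhg7, Mhrt and Snhg18 lie above the wild-type pairs, that of Neat1 lies below, and those of Chaserr and Oip5os1 overlap them.

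Peaks on CpG-rich lncRNA promoters were seldom called. A total of 1182 peaks, of 1167 genes, overlapped the RefSeq promoter window of their own lncRNA. A window was taken as CpG-rich with a GC content of at least 50% and an observed over expected CpG ratio of at least 0.6, which 12.0% of the 11588 lncRNA windows met, against 45.1% of protein-coding windows. Of the 1182 peaks, 224 (18.95%) lay on CpG-rich windows and 958 on CpG-poor ones. On CpG-rich windows 2 peaks (0.893%) were higher and 0 were lower, with 14 higher and 2 lower at an unadjusted p under 0.05, and 1 higher and 0 lower with DESeq2 and likewise with limma voom. On CpG-poor windows 34 (3.55%) were higher and 20 (2.09%) lower. Over all peaks of the table the shares were 3.05% higher and 2.45% lower, and 11.4% and 10.4% at an unadjusted p under 0.05. The median size of the log2 fold change was 0.15 on CpG-rich windows and 0.27 on CpG-poor ones.

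The 2 classes also differed in strength, with a median of 24.4 CPM on CpG-rich windows and 8.35 CPM on CpG-poor ones. Among peaks of 20 CPM or more, 0 of 132 on CpG-rich windows and 9 of 195 on CpG-poor windows were called. Between 10 and 20 CPM the counts were 0 of 40 and 14 of 214, between 5 and 10 CPM 0 of 23 and 15 of 250, and under 5 CPM 2 of 29 and 16 of 299. The 2 called peaks on CpG-rich windows, of Gm33787 and Gm15050, were among the weakest. Gm15050 had 1.03 and 15.0 CPM in the mutant and 1.47 and 0.877 CPM in the wild type, so its call rested on mutant replicate 2, and without that library its log2 fold change was -0.17 (adjusted p = 0.889). The Gm15050 call was also lost without wild-type replicate 2 (0.0519), and that of Gm33787 without wild-type replicate 1 (0.0729) or 2 (0.0576). The strong CpG-rich Gm27011 peak had 122 and 122 CPM in the mutant and 104 and 117 CPM in the wild type (log2 fold change 0.14 ± 0.12). At protein-coding gene ends, 16 of 5877 peaks on CpG-rich windows (0.272%) were higher and 4 (0.0681%) lower. On CpG-poor windows there, 36 of 2134 (1.69%) were higher and 12 (0.562%) lower. The difference between the classes was not tested.

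**Figure D5:**
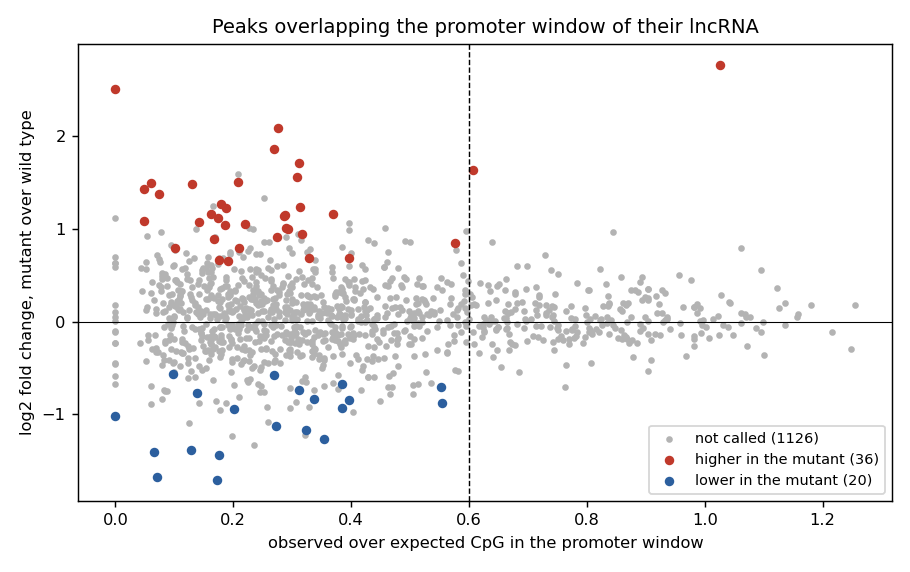
Log2 fold change (mutant over wild type, y axis) of the 1182 lncRNA gene-end peaks that overlap their gene's promoter window, against the observed over expected CpG ratio of the window (x axis; the dashed line marks 0.6). The 36 higher peaks (red) and 20 lower peaks (blue) lie left of the line except for 2 higher peaks.

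Short sequence motifs were searched on both strands of the windows. The AP-1 letters TGANTCA were found in 5 of the 36 windows under higher peaks and 1 of the 20 under lower peaks, beside 9.41% of windows under peaks not called and 9.31% of all lncRNA windows. A GATA motif, AGATAA, was in 4 of 36 and 4 of 20, beside 10.6% and 13.98%. The TEAD letters GGAATG were in 5 of 36 and 3 of 20, beside 18.8% and 16.7%, and the TATA box letters TATAAA in 5 of 36 and 5 of 20, beside 10.9% and 15.5%. The MEF2 consensus was in 2 of 36 and 3 of 20, beside 3.82% and 4.004%, and the SRF CArG box in 0 of 36 and 0 of 20, beside 1.51% and 1.82%. Of the printed windows, those of Gm5546 and 4732465J04Rik hold the AP-1 letters, that of Gm30476 a MEF2 match, those of Gm31588 and Gm5546 the TEAD letters, and that of Gm31588 also the GATA letters. The counts are small, and a match describes letters and not a bound site.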

How the data were processed

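ATAC-seq libraries of mouse heart, 2 Carm1 mutant and 2 wild type, were compared. The submitters' processing notes name FastQC, Bowtie2 and the build mm10, without versions. Not given in the sources used here are the peak caller, the read and duplicate filters, any transposase shift and how peaks were merged, all of which could alter the regions and their counts. The deposited values are raw counts, 1 column per library, without normalization, per the file headers.

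Peaks were tied to genes with RefSeq tables of GRCm38.p6. Counts were tested with edgeR 4.0.16 in R 4.3.3 (TMM, filterByExpr, quasi-likelihood test with genotype as the only term, Benjamini-Hochberg adjustment over all peaks), checked on simulated counts. CPM and log2 fold changes are computed from the deposited counts. DESeq2 1.42.0 and limma 3.58.1 (voom) were alternatives, as were other scalings, filters and distances, each library left out, and the replicate number as a block.

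Described are the 10 higher and 10 lower peaks of smallest p whose groups did not overlap (at most 1 per lncRNA), the strongest peak of each listed lncRNA, the 5 strongest peaks, and lncRNAs with 2 or more called peaks. Peaks named for their loci were chosen after their values were seen. The printed window of Gm27011 was picked among those of the strongest peaks on CpG-rich windows. The members and lists were chosen with earlier results of these data known.

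Libraries of a genotype differed beyond sampling noise (chi-square over degrees of freedom 5.76 for the mutant, 4.09 for the wild type) and each counted as 1 replicate. Intervals and errors cover the spread between libraries, not animals.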

Additional observations from a re-analysis of the deposited data

How the results depend on the processing

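Depth and 2 libraries per genotype limit what could be called at weak peaks. Of the 208 called peaks, 2 turned direction when 1 library was left out, both without mutant replicate 2: Gm15050 (log2 fold change 2.77 with all libraries, -0.17 without it) and Gm51544 (2.73 and -0.29). The counts of 121 higher and 87 lower peaks stayed within 1.5 times under other size factors, loess offsets, total counts, a minimum of 2 CPM and limma voom. With limma voom 96 (2.34%) were higher and 68 (1.66%) lower, beside 2.38% and 1.84% of all peaks. With DESeq2 the counts were 74 (1.81%) and 34 (0.83%), beside 1.55% and 1.15% of all peaks. At an adjusted p under 0.1 they were 247 and 169. No share of all peaks is given for that threshold, so these 2 counts cannot be set against the background. The filter on low counts removed 0 of the 87948 peaks. Leaving it out therefore repeats the main fit, here and in the comparisons of single peaks below. Restricting the peaks to those outside protein-coding genes left 75 higher, of fewer peaks.

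Leaving out 1 library gave between 23 and 222 higher peaks, between 9 and 178 lower peaks, medians between 0.010 and 0.048 (log2), and 14 to 20 of the 20 named calls. The median log2 fold change of 0.03 was 0.00 (-0.0039) with total counts, which moved the median of all peaks to -0.04; it was 0.046 with 500 bp distances, 0.015 with protein-coding ends over 5 kb away and 0.046 outside protein-coding genes. The cause of these shifts was not tested.

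With the replicate number as a block there were 260 higher (6.34%) and 191 lower (4.66%) peaks, beside 5.95% and 5.11% of all peaks. The labels share only a number: with 2 pairs the numbers were not taken to pair the libraries, and the deviations of same-numbered libraries correlated at 0.108. Among single peaks, 816 comparisons kept their side of the threshold, 44 lost it and 14 gained it.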
